A study of Mus musculus with 8 samples.

Results

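The heart holds several kinds of endothelium, and 44 genes that mark or serve them were followed in RNA-seq of mouse ventricles at embryonic day 15.5 (E15.5). The genes were taken by symbol from a list with 23 pan-endothelial, 4 endocardial, 9 coronary, 4 flow-response and 4 lymphatic members. All 44 were found among the 53465 genes of the deposited table, and all 44 were among the 15388 genes tested. The WT group had 4 libraries, and the group of genotype Nrg-1flox;Cdh5-CreERT2 also had 4. The latter are called Flox-labelled libraries here. In that genotype a Cre recombinase fused to a hormone receptor is expressed from the promoter of Cdh5, is activated by tamoxifen, and targets the floxed allele of Nrg1, the gene of the secreted growth factor neuregulin-1, in endothelial cells of every kind. The labels do not state the dose or day of tamoxifen, the strain, the litters, or whether WT embryos carried Cre or a floxed allele or received tamoxifen. Where libraries of a group shared a litter, the p-values would measure only the spread between these libraries.

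The targeted gene was examined first. Nrg1 (ENSMUSG00000062991, chromosome 8) had 5.46, 4.64, 4.08 and 5.31 CPM (counts scaled to a common library size) in the WT libraries 1 to 4 and 6.82, 6.33, 6.16 and 5.36 CPM in Flox-labelled libraries 1 to 4. The labelled deletion was thus not seen as a lower level, and the log2 fold change of 0.34 (95% confidence interval 0.08 to 0.60) did not pass (false discovery rate, FDR, 0.311). Directions given for the genes are therefore those of the label. Libraries held 16761763 to 24144272 expected counts. Markers of ventricular muscle summed to 41155 to 44899 CPM in WT and 40561 to 45260 CPM in Flox-labelled libraries and the endothelial markers Cdh5 and Pecam1 were present in every library. The sum of Y-linked genes was 69.3 to 171 CPM in WT and 42.9 to 120 CPM in Flox-labelled libraries. It was near 0 in no library, and the number and sex of the embryos per library were not tested. Flox-labelled libraries 1 to 3, at 68.3, 42.9 and 58.5 CPM, lay below every WT library. This sum is thus partly confounded with the group.

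Endocardium lines the inside of the chambers, and the coronary vessels grow through the ventricular wall from endocardium and from endothelium of the sinus venosus. Endothelial cells share adhesion proteins, transcription factors and surface receptors, while endocardial, capillary, arterial and lymphatic cells add genes of their own. Flow of blood acts on endothelial cells through factors such as Klf2 and Klf4 and through nitric oxide made by Nos3. Neuregulin made by endocardium acts on the ErbB receptors of neighbouring cardiomyocytes.

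Levels were compared between genes only per kilobase of exon (CPM per kilobase, RPKM). In WT, Cav1 was the highest of the 44 at 88.0 ± 3.95 RPKM (SD, n = 4), followed by Cdh5 at 67.9 ± 1.04 RPKM, S1pr1 at 45.2 ± 1.33 RPKM and Cd93 at 39.5 ± 1.07 RPKM. These 4 neighbours in the order were further apart than their spread. Fabp4 (35.0 ± 2.13 RPKM) and the leading endocardial gene Plvap (34.3 ± 3.74 RPKM) lay within it. The lowest members were Foxc1 at 3.10 ± 0.192 RPKM, Foxc2 at 2.55 ± 0.345 RPKM, Tal1 at 2.43 ± 0.149 RPKM and Sox17 at 1.78 ± 0.234 RPKM, of which Foxc2 and Tal1 lay within their spread. The lymphatic list was led by Prox1 (14.1 ± 0.566 RPKM), a master factor of lymphatic endothelium that is also expressed in heart muscle.

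**Figure D1:**
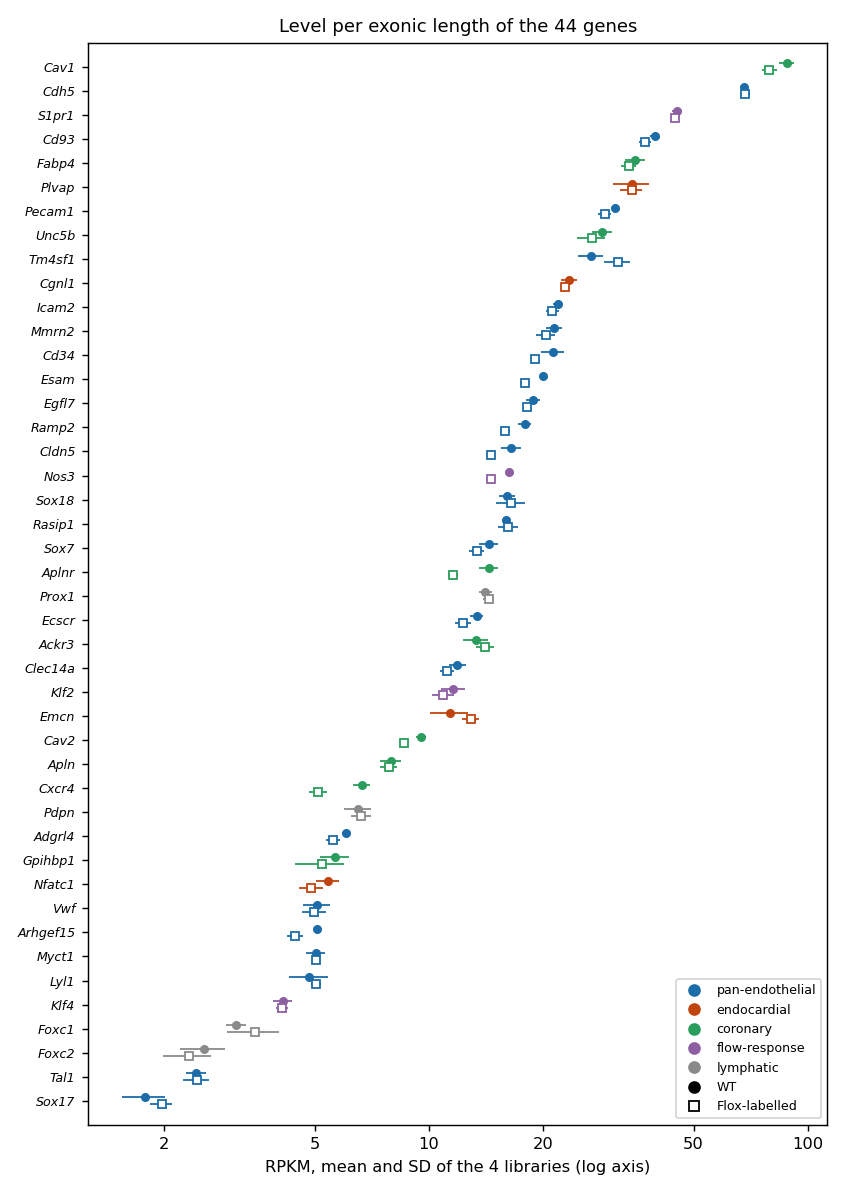
Level of each of the 44 genes in RPKM on a log axis, in WT (filled circles) and Flox-labelled (open squares) libraries, with the mean and SD of 4 libraries, coloured by subtype and ordered by the WT level. The range runs from Sox17 at 1.78 RPKM to Cav1 at 88.0 RPKM, and for most genes the symbols of the groups lie close together.

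To ask whether endothelial genes differ between the groups, all 15388 genes were tested with edgeR's quasi-likelihood test and adjusted by Benjamini and Hochberg's method. The 44 members were chosen with earlier results of these data known, so their shares beside those of all tested genes describe the list only. Of the 44 members, 3 passed an FDR of 0.05 (6.82%, where 0.526% of all tested genes passed), and all 3 were lower in Flox-labelled libraries (3 of 44, where 0.214% of all tested genes passed as lower). They were the apelin receptor Aplnr, the chemokine receptor Cxcr4 and the endothelial nitric oxide synthase Nos3. No member was called higher. At an unadjusted p below 0.05 there were 2 higher members, Tm4sf1 and Emcn (background 5.13%), against 16 lower (36.4% of members, where 5.41% of all tested genes were lower at that p). Tm4sf1 was called higher by DESeq2, which called 1.29% of all tested genes, and limma voom, which called 0.37%, called no member higher. In bulk ventricle, fewer endothelial cells and less RNA per endothelial cell cannot be told apart.

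The lean of the list was shallow. The log2 fold change was below 0 in 32 of 44 members (72.7%, against 50.6% of all tested genes), with a median of -0.07 against -0.00123 over all tested genes. With the Y-linked sum as a covariate in edgeR's test, 26 of 44 were below 0. Under that covariate 9 were lower at an unadjusted p below 0.05, where the main test gave 16. The groups did not overlap in 10 members, each lower in Flox-labelled libraries (22.7%, where 2.98% of all tested genes were separated in that direction), and no member was separated in the other direction (background 3.07%). The summed level of the 44 genes was 3257 to 3331 CPM in WT and 3080 to 3234 CPM in Flox-labelled libraries, without overlap. By subtype, the median log2 fold change was -0.11 for the coronary, -0.08 for the pan-endothelial, -0.05 for the flow-response, -0.02 for the endocardial and 0.03 for the lymphatic members. Differences between the subtypes were not tested, and each of the endocardial, flow-response and lymphatic medians rests on 4 genes. The endocardial median ranged from -0.07 to 0.02 when each library was left out in turn.

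**Figure D2:**
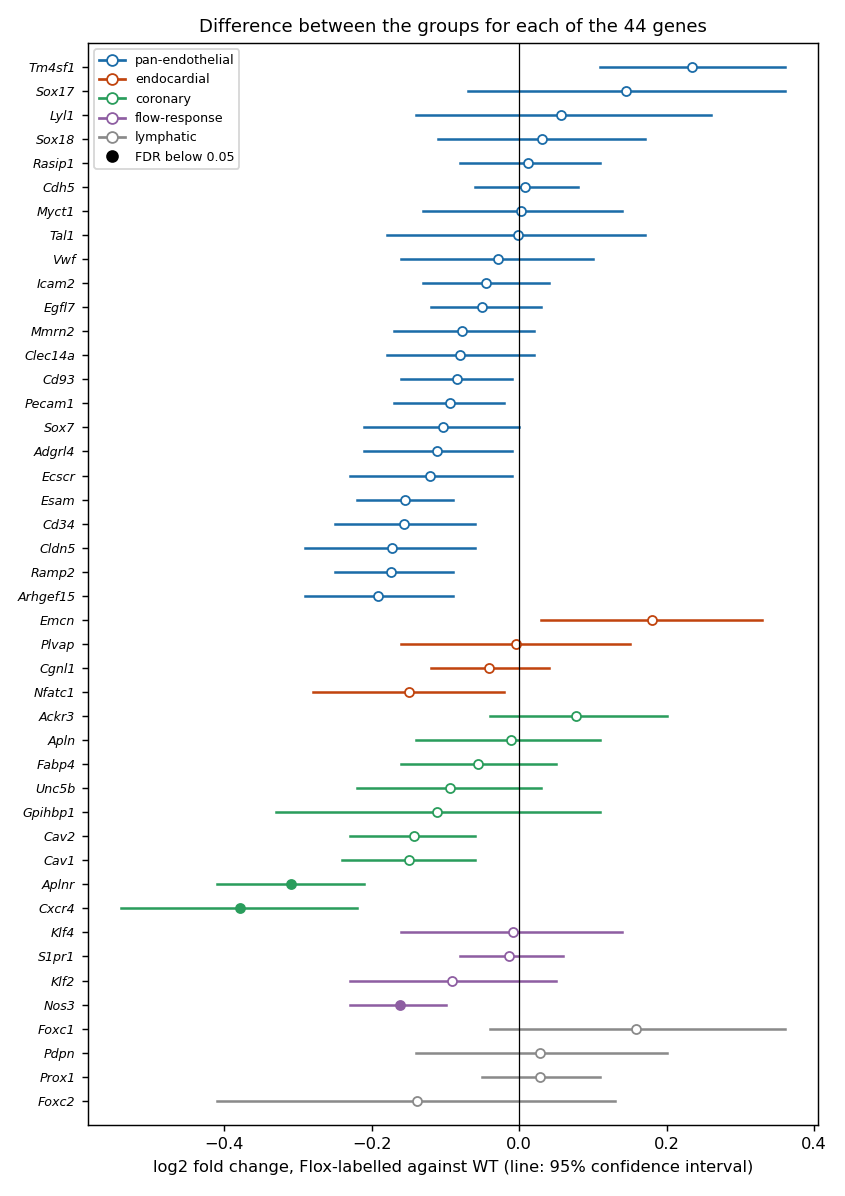
The log2 fold change of each of the 44 genes (Flox-labelled against WT, 4 libraries each; points) with its 95% confidence interval (lines), grouped and coloured by subtype, with filled points for an FDR below 0.05. Aplnr, Cxcr4 and Nos3 carry the filled points, all left of 0, and Tm4sf1 and Emcn have intervals wholly to the right of 0.

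Of the 44 members, 2 coronary ones had the log2 fold changes furthest from 0. Aplnr and Cxcr4, both G protein-coupled receptors that guide coronary endothelial cells, fell by 0.31 and 0.38 on the log2 scale. Apln, a ligand of Aplnr, and the scavenging receptor Ackr3, which removes the ligand of Cxcr4, had log2 fold changes of -0.01 and 0.08 and did not pass. Of the 9 coronary members 8 were below 0 (88.9%, against 50.6% of all tested genes), 2 were called (22.2%, against 0.526%), and 4 were lower without overlap (44.4%, against 2.98%). A lean below 0 was not particular to this list. The share was 85.7% in a second endothelial list given below, 100% in atrial, 87.5% in mural and 75% in fibroblast markers. It was 71.4% in megakaryocyte, 50% in ventricular muscle, 25% in macrophage, 14.3% in erythroid and 0% in epicardial markers. The summed level of the coronary list was 786 to 839 CPM in WT and 727 to 774 CPM in Flox-labelled libraries. Cav1 was the largest part of it, at 288 to 318 CPM in WT and 256 to 286 CPM in Flox-labelled libraries.

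Aplnr (ENSMUSG00000044338, GRCm38 chromosome 2, 85136225 to 85139923, plus strand) is the receptor for apelin and Elabela and marks venous and coronary progenitor endothelium. Its level was 57.2, 52.2, 53.4 and 49.8 CPM in the WT libraries and 43.2, 41.9, 41.9 and 44.6 CPM in Flox-labelled libraries. Every Flox-labelled library lay below every WT library. The mean went from 53.2 ± 3.08 to 42.9 ± 1.25 CPM (SD, n = 4), 19.4% lower, with a log2 fold change of -0.31 (SE 0.0441, 95% confidence interval -0.41 to -0.21, FDR 0.0118). It kept its call in 18 of 20 alternative analyses, several of which differ little from the main test. The call was lost without Flox-labelled library 3 (FDR 0.0534) and with the Y-linked sum as a covariate (FDR 0.0801). Set against Cdh5, whose own log2 fold change was 0.01, Aplnr stood at 18.6 ± 0.956 CPM per 100 CPM of Cdh5 in WT and 15 ± 0.0887 in Flox-labelled libraries (SD, n = 4). Of the 23 pan-endothelial members 16 were below 0 and 7, Cdh5 among them, above. This ratio thus does not stand for one to endothelium at large. The ligand Apln overlapped between the groups, at 22.8 to 26.5 CPM in WT and 23.8 to 26.5 CPM in Flox-labelled libraries. The other ligand gene, Apela, chosen after its values were seen, was at 1.25 to 2.61 and 1.31 to 2.24 CPM.

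Cxcr4 (ENSMUSG00000045382, chromosome 1, 128588199 to 128592293, minus strand) is the receptor for the chemokine Cxcl12 and serves coronary artery assembly. It was at 12.7, 11.5, 11.6 and 12.4 CPM in the WT libraries and 8.54, 9.27, 9.51 and 9.65 CPM in Flox-labelled libraries, again without overlap. The mean went from 12.0 ± 0.596 to 9.25 ± 0.494 CPM (SD, n = 4), 23.1% lower, with a log2 fold change of -0.38 (SE 0.0741, 95% confidence interval -0.54 to -0.22, FDR 0.0454). This is a gene of 164 to 282 counts per library, and its call held in 8 of 20 alternatives. It was lost narrowly with limma voom (FDR 0.0502), total count scaling (FDR 0.0529) and the GC and length correction (FDR 0.0542), and with the replicate block (FDR 0.0767). Without any one of the 4 WT libraries or Flox-labelled libraries 1 to 3 the FDR was 0.0914 to 0.132, without Flox-labelled library 4 it was 0.0465, and with the Y-linked covariate it was 0.264. Leukocytes also express Cxcr4. The 8 macrophage and leukocyte markers summed to 106 to 150 CPM in WT and 118 to 171 CPM in Flox-labelled libraries, 6 of the 8 had a log2 fold change above 0 and none was called, and their part in the result was not tested. Ackr3 overlapped between the groups, at 41.6 to 48.4 CPM in WT and 44.2 to 49.3 CPM in Flox-labelled libraries. The ligand Cxcl12, chosen after its values were seen, was at 143 to 150 CPM in WT and at 125, 133, 123 and 162 CPM in Flox-labelled libraries 1 to 4 (log2 fold change -0.11, FDR 0.63), so that 3 libraries lay below the WT range and 1 above it.

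Cav1 and Cav2 encode the caveolins, which coat the small membrane pits that are abundant in capillary endothelium. They are neighbours on chromosome 6, on the same strand and 17219 bases apart. Cav1 was at 295, 288, 318 and 310 CPM in the WT libraries and 274, 286, 256 and 277 CPM in Flox-labelled libraries. Cav2 was at 31.4, 31.2, 33.2 and 31.3 CPM in the WT libraries and 28.9, 28.8, 28.4 and 28.8 CPM in Flox-labelled libraries. Neither gene overlapped between the groups, yet neither passed edgeR's adjusted test, the log2 fold changes being -0.15 (SE 0.0416, FDR 0.162) for Cav1 and -0.14 (SE 0.0398, FDR 0.161) for Cav2. Cav1 was called by DESeq2 and by edgeR with no filter on low counts (lowest FDR 0.031), and Cav2 in none of the 20 alternatives. Cav2 stood at 10.5 CPM per 100 CPM of Cav1 in each group (SD 0.304 in WT and 0.427 in Flox-labelled libraries, n = 4), so the ratio within the locus did not differ by more than its spread. Caveolins are not confined to endothelium. Of the 8 markers of mural and smooth muscle cells, which also carry caveolae, 7 had a log2 fold change below 0 (87.5%, against 50.6% of all tested genes). At an unadjusted p below 0.05, 4 were lower (50%, against 5.41%), and 0 were called by edgeR, with a median of -0.13. The pericyte gene Kcnj8 was separated between the groups (18.2 to 19.8 CPM in WT, 15.7 to 17.0 CPM in Flox-labelled libraries, log2 fold change -0.24, FDR 0.0867). The summed level of the 8 overlapped, at 1852 to 1969 CPM in WT and 1897 to 2028 CPM in Flox-labelled libraries, but most of it was the smooth muscle actin gene Acta2, the single marker with a log2 fold change above 0 (0.12, FDR 0.184). The other 7 summed to 569 to 635 CPM in WT and 534 to 560 CPM in Flox-labelled libraries, without overlap. Leaving out the single marker of the other direction was chosen after the values were seen and favours such a gap. The part of mural cells was not tested.

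The remaining coronary members overlapped between the groups and had an unadjusted p above 0.05. Fabp4, a fatty acid carrier of capillary endothelium, had a log2 fold change of -0.06. Gpihbp1, which binds lipoprotein lipase and moves it across the capillary wall, had -0.11, with Flox-labelled library 4 lowest at 10.9 CPM. Unc5b, a netrin receptor of arterial and sprouting endothelium, had -0.09.

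Promoter sequences are shown for the members that the results turn on and for which the RefSeq table had an entry, so that the upstream sequence of genes with unlike differences can be read side by side. Each is the 250 bases before the RefSeq start on build GRCm38.p6, 5′ to 3′ on the gene's strand. Capitals mark GGAA or TTCC, the core bound by ETS factors such as Erg and Ets1, which drive many endothelial genes. Cxcr4 lies on the minus strand at chr1:128592300-128592549, Cav1 on the plus strand at chr6:17306085-17306334, Cav2 on the plus strand at chr6:17280935-17281184, Tm4sf1 on the minus strand at chr3:57301989-57302238 and Emcn on the plus strand at chr3:137340828-137341077.
Cxcr4: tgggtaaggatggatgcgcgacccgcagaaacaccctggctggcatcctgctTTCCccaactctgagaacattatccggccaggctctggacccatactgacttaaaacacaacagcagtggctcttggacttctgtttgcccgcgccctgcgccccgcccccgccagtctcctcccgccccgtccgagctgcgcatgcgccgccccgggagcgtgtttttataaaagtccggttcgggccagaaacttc
Cav1: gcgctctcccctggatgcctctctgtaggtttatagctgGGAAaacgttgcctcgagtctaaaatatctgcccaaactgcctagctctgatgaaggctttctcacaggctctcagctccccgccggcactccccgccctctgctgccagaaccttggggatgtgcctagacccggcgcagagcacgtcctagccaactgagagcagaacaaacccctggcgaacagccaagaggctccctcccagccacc
Cav2: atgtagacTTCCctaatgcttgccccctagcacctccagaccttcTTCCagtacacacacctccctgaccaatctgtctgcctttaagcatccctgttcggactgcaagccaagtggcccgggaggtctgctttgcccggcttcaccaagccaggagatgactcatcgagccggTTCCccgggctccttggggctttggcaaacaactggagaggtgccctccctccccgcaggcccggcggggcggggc
Tm4sf1: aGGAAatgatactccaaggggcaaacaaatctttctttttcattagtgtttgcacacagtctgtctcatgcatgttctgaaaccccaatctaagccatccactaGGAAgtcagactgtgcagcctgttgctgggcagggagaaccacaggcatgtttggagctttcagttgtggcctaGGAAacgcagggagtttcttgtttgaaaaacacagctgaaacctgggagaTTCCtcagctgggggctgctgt
Emcn: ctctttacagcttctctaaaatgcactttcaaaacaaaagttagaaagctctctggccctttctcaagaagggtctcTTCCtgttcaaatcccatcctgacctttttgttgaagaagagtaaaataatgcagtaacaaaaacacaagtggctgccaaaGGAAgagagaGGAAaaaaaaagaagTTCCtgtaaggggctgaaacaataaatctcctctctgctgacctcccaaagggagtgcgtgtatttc

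The core was found 1 time before Cxcr4, 1 time before Cav1, 3 times before Cav2, 4 times before Tm4sf1 and 4 times before Emcn, both strands being searched. Of all 32851 promoters in the table, 93.4% held at least 1 such core, with a median of 3 per promoter and quartiles of 2 and 4. The 28 promoters of the 23 members that matched by symbol had it in 96.4%, also with a median of 3. A core of 4 letters is thus as frequent before these genes as before genes at large, and a match is a description of the sequence only.

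Of the flow-response members, Nos3 was called and the other 3 were not. Nos3 (ENSMUSG00000028978, chromosome 5, 24364810 to 24384474, plus strand) was at 67.0, 68.4, 68.7 and 65.5 CPM in the WT libraries and 60.0, 59.7, 60.3 and 60.9 CPM in Flox-labelled libraries. The groups did not overlap, and the spread within each was small. The mean went from 67.4 ± 1.43 to 60.2 ± 0.519 CPM (SD, n = 4), 10.6% lower, with a log2 fold change of -0.16 (SE 0.0294, 95% confidence interval -0.23 to -0.10, FDR 0.0383). The call held in 10 of 20 alternatives. It was lost with limma voom (FDR 0.0522) and with the replicate block (FDR 0.0571). Without any one of the 4 WT libraries or Flox-labelled libraries 1 to 3 the FDR was 0.0607 to 0.126, and with the Y-linked covariate it was 0.145. Its exons share 25.2% of their bases with the antisense gene Gm15587 and 7.1% with Atg9b, and its counts were not whole in 100% of the libraries, but the partners were at no more than 1.57 CPM and the call stayed when the counts of the overlapping genes were summed (FDR 0.0454).

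The other flow-response genes overlapped between the groups. S1pr1, a receptor for sphingosine-1-phosphate that steadies vessel walls, was at 142, 133, 136 and 140 CPM in the WT libraries and 138, 133, 139 and 135 CPM in Flox-labelled libraries, a log2 fold change of -0.01. Klf2 and Klf4, transcription factors that are induced by laminar flow and act upstream of Nos3, had log2 fold changes of -0.09 (95% confidence interval -0.23 to 0.05) and -0.01 (95% confidence interval -0.16 to 0.14). The intervals leave room for a difference of Klf2 of the size seen for Nos3.

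**Figure D3:**
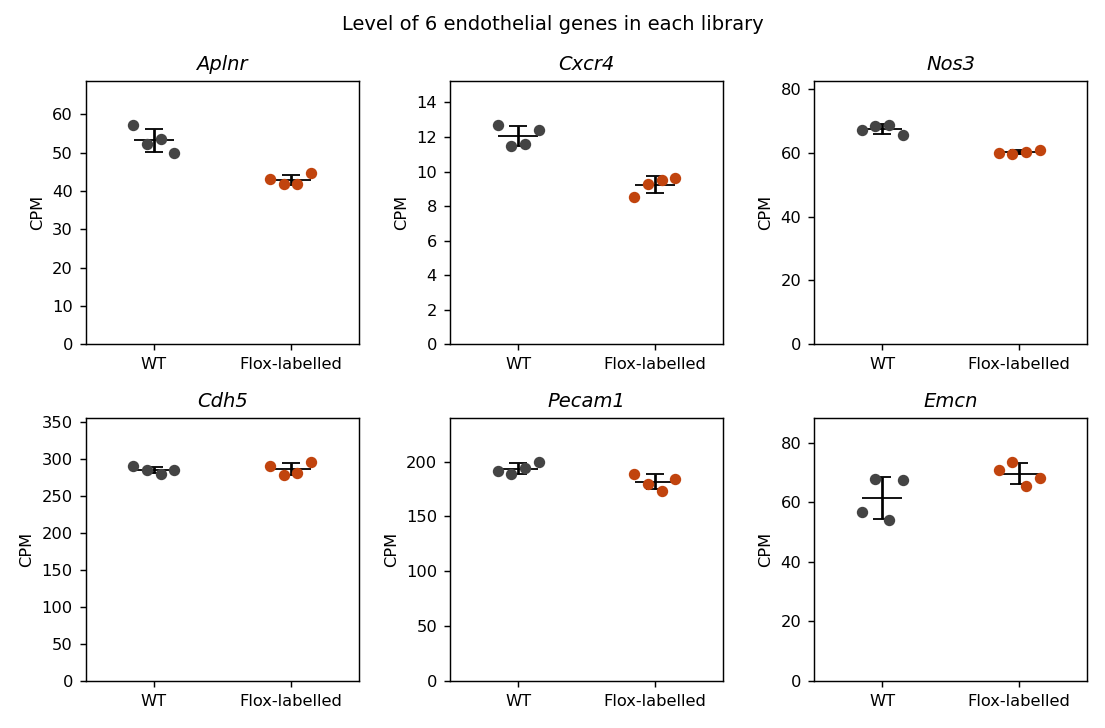
CPM of 6 genes in each library (points; 4 WT and 4 Flox-labelled), with the mean (long line) and SD (error bars), on axes that start at 0. Aplnr, Cxcr4 and Nos3 do not overlap between the groups, while Cdh5, Pecam1 and Emcn do.

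Pan-endothelial genes were mixed. Of the 23 members 0 passed the FDR in edgeR's test (background 0.526%). At an unadjusted p below 0.05, 10 were lower (43.5%, against 5.41% of all tested genes) and 1 was higher (4.35%, against 5.13%), and 5 were lower without overlap between the groups (21.7%, against 2.98%). DESeq2 called Ramp2 and Tm4sf1 of them. Their summed level was 1712 to 1742 CPM in WT and 1620 to 1707 CPM in Flox-labelled libraries. The junction proteins were not alike.

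Cdh5 encodes VE-cadherin, the adhesion protein of endothelial junctions, and its promoter drives the Cre. It was at 291, 286, 280 and 285 CPM in the WT libraries and 291, 279, 281 and 297 CPM in Flox-labelled libraries, and the log2 fold change of 0.01 had a 95% confidence interval of -0.06 to 0.08 (FDR 0.967). Pecam1, the platelet and endothelial adhesion molecule CD31, was at 191, 189, 194 and 200 CPM in the WT libraries and 189, 180, 173 and 184 CPM in Flox-labelled libraries. Its groups overlapped near 189 CPM, and the log2 fold change of -0.09 (SE 0.0355, 95% confidence interval -0.17 to -0.02) did not pass (FDR 0.357). Esam, an adhesion molecule of tight junctions, was separated, at 57.4, 57.3, 57.5 and 56.8 CPM in the WT libraries and 51.7, 53.4, 50 and 50.4 CPM in Flox-labelled libraries (log2 fold change -0.15, SE 0.0321, FDR 0.0584). Claudin-5 (Cldn5), a tight junction strand protein, was separated as well, at 25.1, 21.8, 23.7 and 22.8 CPM in the WT libraries and 20.6, 20.6, 21.2 and 20.4 CPM in Flox-labelled libraries (log2 fold change -0.17, FDR 0.225). Of these 4 genes Cdh5 alone had a log2 fold change above 0, and it changed sign when single libraries were left out (-0.01 to 0.02).

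Receptors and surface proteins of the list held the rest of the separated genes. Ramp2, the partner protein that makes a receptor for adrenomedullin, was at 61.1, 60.4, 56.3 and 58.6 CPM in the WT libraries and 53.8, 51.6, 50.4 and 54.0 CPM in Flox-labelled libraries (log2 fold change -0.17, SE 0.0374, FDR 0.0637). It shares 33.4% of its exonic bases with Vps25 on the same strand, and its counts were not whole in 100% of the libraries, so its value is less certain. Adgrl4, an adhesion receptor of sprouting endothelium, was at 28.4, 26.9, 27.4 and 27.8 CPM in the WT libraries and 26.2, 24.4, 25.2 and 26.7 CPM in Flox-labelled libraries (log2 fold change -0.11, FDR 0.402). Arhgef15, a signalling protein found in endothelium, was at 32.3, 33.0, 32.9 and 33.2 CPM in the WT libraries and 29.3, 30.4, 26.9 and 28.4 CPM in Flox-labelled libraries (log2 fold change -0.19, SE 0.0447, FDR 0.0869), the lowest log2 fold change of the pan-endothelial members. All 3 were separated between the groups and none passed.

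Cd34, Cd93, Ecscr and Sox7 had an unadjusted p below 0.05 with groups that overlapped. Cd34, a sialomucin of progenitors and capillaries, was at 158, 142, 169 and 153 CPM in the WT libraries and 140, 137, 138 and 143 CPM in Flox-labelled libraries (log2 fold change -0.16, FDR 0.192). Cd93, a lectin-like receptor, was at 270, 262, 269 and 255 CPM in the WT libraries and 259, 249, 237 and 251 CPM in Flox-labelled libraries (log2 fold change -0.08, FDR 0.419). Ecscr, an endothelial surface protein, was at 22.6, 22.9, 23.6 and 24.7 CPM in the WT libraries and 23.1, 20.8, 20.8 and 21.6 CPM in Flox-labelled libraries (log2 fold change -0.12, FDR 0.441). In each of these 3 genes it was 1 library at the edge of its group that made the overlap. Sox7, a SoxF transcription factor of endothelium, was at 49.7, 48.3, 43.7 and 48.3 CPM in the WT libraries and 45.4, 43.2, 41.9 and 46.5 CPM in Flox-labelled libraries (log2 fold change -0.10, FDR 0.47). The other SoxF factors, Sox17 and Sox18, had log2 fold changes of 0.15 and 0.03, with 95% confidence intervals that include 0.

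Tm4sf1, a tetraspanin-like surface protein of endothelial and mesenchymal cells, went the other way. It was at 105, 114, 105 and 122 CPM in the WT libraries and 128, 145, 121 and 131 CPM in Flox-labelled libraries. WT library 4 lay above Flox-labelled library 3, and the other libraries were apart. On the log2 scale the difference was 0.23 (SE 0.0595, 95% confidence interval 0.11 to 0.36, FDR 0.122), and 4 of 20 alternatives called it higher. The 11 pan-endothelial members not yet given values in each library (Egfl7, Tal1, Lyl1, Sox17, Sox18, Mmrn2, Vwf, Icam2, Rasip1, Clec14a and Myct1) overlapped between the groups, with log2 fold changes from -0.08 (Clec14a) to 0.15 (Sox17). They include the blood and endothelial factors Tal1 and Lyl1 and the clotting protein gene Vwf. The 8 megakaryocyte and platelet markers, cells that share Vwf, Pecam1 and Cd34 with endothelium, had 7 tested and 0 called, with sums of 21.3 to 27.5 CPM in WT and 21.1 to 24.7 CPM in Flox-labelled libraries.

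The endocardial members had log2 fold changes of both signs, none passed, and differences between them were not tested. Emcn (endomucin, a sialoglycoprotein of endocardium, veins and capillaries) was at 56.6, 67.7, 54.2 and 67.4 CPM in the WT libraries and 70.9, 73.7, 65.6 and 68.1 CPM in Flox-labelled libraries. The groups overlapped, since WT libraries 2 and 4 reached the range of the Flox-labelled libraries and WT libraries 1 and 3 lay below it. The mean was 61.5 ± 7.07 CPM in WT and 69.6 ± 3.5 CPM in Flox-labelled libraries (SD, n = 4), and the log2 fold change of 0.18 (SE 0.068, 95% confidence interval 0.03 to 0.33) did not pass (FDR 0.358). Nfatc1, the transcription factor of endocardium and valve endothelium, was at 43.1, 37.4, 42.6 and 38.8 CPM in the WT libraries and 35.6, 36.0, 34.1 and 40.5 CPM in Flox-labelled libraries (log2 fold change -0.15, SE 0.0595, FDR 0.393). Its groups overlapped through Flox-labelled library 4. Plvap, a protein of the diaphragms of fenestrae and caveolae, was at 69.7, 76.1, 58.2 and 69.1 CPM in the WT libraries and 72.3, 63.0, 65.8 and 71.6 CPM in Flox-labelled libraries, with a mean difference near 0 (95% confidence interval -0.16 to 0.15). Cgnl1, a junction protein, had a log2 fold change of -0.04.

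Emcn and Pecam1 were paired because their log2 fold changes point in opposite directions, so their ratio is a description and was not tested. Emcn stood at 29.6, 35.8, 28 and 33.7 CPM per 100 CPM of Pecam1 in WT libraries 1 to 4 and at 37.5, 41.0, 38.0 and 37.1 in Flox-labelled libraries 1 to 4. The ratio did not overlap between the groups, although Emcn and Pecam1 did. Pairing genes of opposite direction favours such a gap, so the gap adds nothing to the values of each gene. Within WT the low ratios belonged to libraries 1 and 3, where Emcn itself was low, and Plvap was lowest in WT library 3 as well. Neither gene passed in any of the 20 alternatives. Emcn had the sign of Tm4sf1, and the other 3 endocardial members did not share it, so Emcn is not taken here to stand for its subtype.

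No lymphatic member passed, and all 4 overlapped between the groups. Prox1 was at 125, 114, 116 and 120 CPM in the WT libraries and 126, 119, 122 and 117 CPM in Flox-labelled libraries (log2 fold change 0.03, 95% confidence interval -0.05 to 0.11). Foxc1, a forkhead factor of vessels, valves and lymphatics, was at 18.5, 18.5, 16.5 and 19.1 CPM in the WT libraries and 17.4, 19.8, 19.2 and 24.8 CPM in Flox-labelled libraries (log2 fold change 0.16, FDR 0.599), with Flox-labelled library 4 above the rest. Foxc2 and podoplanin (Pdpn) had log2 fold changes of -0.14 and 0.03 and overlapped between the groups. Of these 4, none is limited to lymphatic endothelium: Pdpn is also made by epicardium, whose 8 markers all had log2 fold changes of 0.0 or above with a median of 0.11 and 0 called.

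The libraries were not equally low. Relative to the WT mean, the median of the 44 genes was -0.03, -0.09, -0.09 and -0.03 on the log2 scale in Flox-labelled libraries 1 to 4, and 0.03, -0.03, -0.00 and 0.00 in WT libraries 1 to 4. Flox-labelled libraries 2 and 3 thus lay lowest, and libraries 1 and 4 were as low as WT library 2. Flox-labelled library 3 was above its own group's mean in 11 of the 44 genes and library 4 in 31. For the coronary members the medians were -0.10, -0.08, -0.15 and -0.14 in Flox-labelled libraries and 0.04, -0.06, 0.06 and -0.02 in WT libraries, without overlap.

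**Figure D4:**
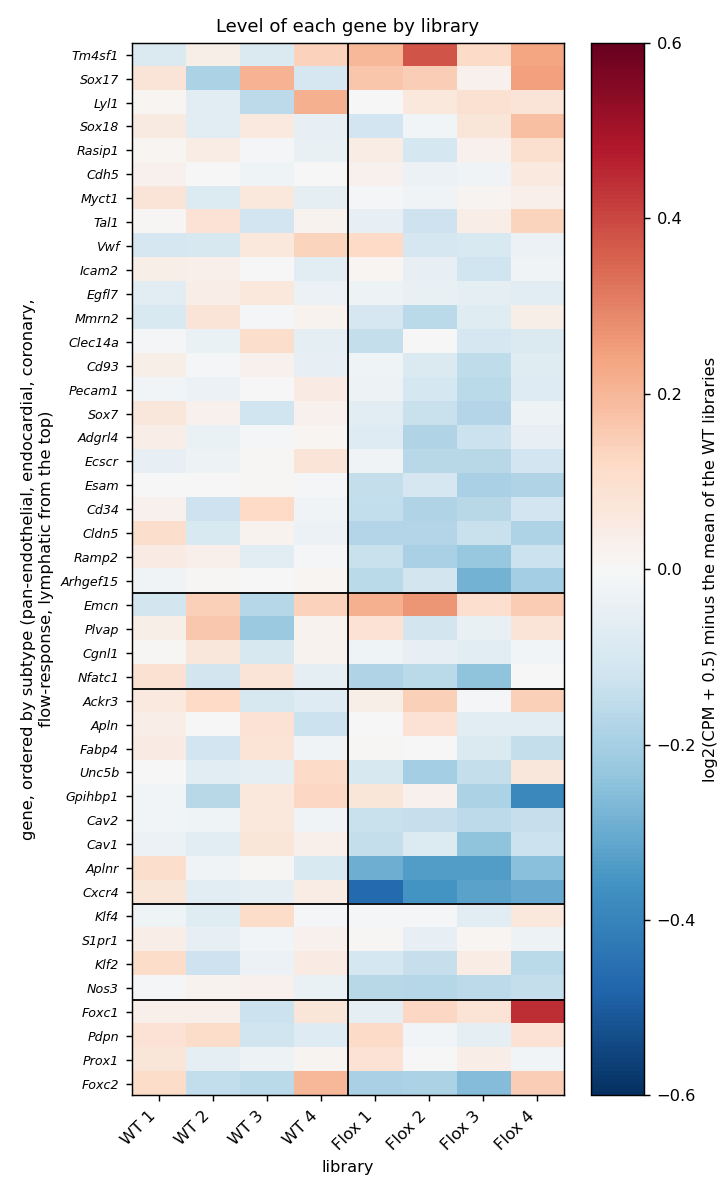
Level of each of the 44 genes in each of the 8 libraries, as log2(CPM + 0.5) minus the mean of the WT libraries, with red above and blue below it, in the order of the subtypes (horizontal lines) and the groups (vertical line). Aplnr and Cxcr4 are blue in all 4 Flox-labelled libraries and Tm4sf1 is red in all 4, while most other rows are pale.

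A second list of 37 endothelial genes, not among the 44, was looked at for comparison, and 35 of its genes were tested. It was read in the same libraries and was also chosen with earlier results of these data known. Its shares are thus a description and no independent check of the first list. Of these, 30 had a log2 fold change below 0 (85.7%, against 50.6% of all tested genes) and the median was -0.10, against -0.07 for the 44 members. At an unadjusted p below 0.05 there were 14 lower (40%, against 5.41%) and 2 higher (Nrp1 and Edn1, 5.71%, near the background of 5.13%). Edn1, the gene of the vessel-constricting peptide endothelin-1, was the single one called by edgeR's test, at 9.99, 12.1, 12.1 and 14.5 CPM in the WT libraries and 17.3, 19.8, 16.6 and 19.8 CPM in Flox-labelled libraries, without overlap (log2 fold change 0.59, FDR 0.0328). The call held in 13 of 20 alternatives. It was lost with the Y-linked covariate (FDR 0.0875) and without WT library 1, 2 or 3 or Flox-labelled library 1, 2 or 3 (FDR 0.0538 to 0.0985).

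The 14 lower genes included receptors that define endothelium. The VEGF receptor Kdr was at 170 to 186 CPM in WT and 155 to 165 CPM in Flox-labelled libraries (log2 fold change -0.17, FDR 0.0693), and the orphan receptor Tie1 was at 158 to 162 and 132 to 152 CPM (log2 fold change -0.17, FDR 0.121). The ETS factors Erg (29.8 to 31.7 and 26.1 to 28.1 CPM, log2 fold change -0.19, FDR 0.0769) and Ets1 (116 to 123 and 103 to 113 CPM, log2 fold change -0.14, FDR 0.135) and the Notch ligand Dll4 (26.1 to 29.0 and 20.2 to 25.3 CPM, log2 fold change -0.29, FDR 0.0869) were likewise separated between the groups without passing. Under some alternatives they were called: Kdr and Dll4 in 4 of 20, Tie1 in 3, and Erg, Ets1 and Hey1 in 1 each, DESeq2 calling Kdr, Tie1 and Dll4. The lowest log2 fold changes of the 14 were -0.34 for Sema3g, a semaphorin of arterial endothelium, -0.31 for Tmem100, a target of BMP signalling, and -0.30 for the Notch target Hey1. The others were Flt4 (-0.15), Ptprb (-0.14), Adgrf5 (-0.09), Nrp2 (-0.14), Ephb4 (-0.10) and Cytl1 (-0.25), all overlapping between the groups. Other genes of the list lay closer together, with averages in WT and Flox-labelled libraries of 255 and 255 CPM for Eng, 115 and 113 CPM for Tek and 252 and 250 CPM for Cd36.

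Markers of other cells were set beside these values, 8 to a list. No gene of the ventricular muscle, atrial, macrophage, erythroid, mural, fibroblast, epicardial or megakaryocyte lists was called by edgeR's test. Under the alternatives Bmp10 was called in 4 of 20, Myh6, Dkk3 and Postn in 2 each, and Rgs5, Acta2 and Kcnj8 in 1 each. Of the atrial markers 8 of 8 had a log2 fold change below 0 (100%, against 50.6% of all tested genes), with a median of -0.22. Their sums were 1766 to 2001 CPM in WT and 1734 to 1874 CPM in Flox-labelled libraries. At an unadjusted p below 0.05, 4 of the 8 atrial markers were lower (50%, against 5.41% of all tested genes and 36.4% of the 44 members). Among them was Bmp10, a ligand made by atrial and trabecular muscle, at 103, 117, 93.8 and 123 CPM in the WT libraries and 76, 68.8, 59.9 and 95.5 CPM in Flox-labelled libraries. Its groups overlapped, and its log2 fold change of -0.55 (FDR 0.0606) was further from 0 than that of any of the 44 members. The erythroid sum was uneven within groups, at 4268 to 9378 CPM in WT and 5848 to 9975 CPM in Flox-labelled libraries (median log2 fold change 0.11), and the fibroblast and valve markers had a median of -0.06. The median over ventricular muscle markers was 0.01. No gene of these lists was at 0 in all libraries, and the part of these cells in the endothelial values was not tested.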

How the data were processed

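Poly-A RNA of ventricles was made into directional libraries from 100 ng and sequenced as 60-base single reads on a HiSeq2500, per the labels. The authors deposited RSEM expected counts per gene, which split the reads that fit more than 1 gene. Their notes name cutadapt, RSEM 1.3.1 and GRCm38, and the table's name gives Ensembl release 91. The aligner and the use of strand are not given in the sources used here. Of the values, 18.1% were not whole.

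Expected counts were rounded, filtered with filterByExpr by group, scaled by TMM (factors 0.988 to 1.01) and tested with edgeR 4.0.16 (two-sided quasi-likelihood test by glmQLFit and glmQLFTest, group as the only term) in R 4.3.3, with Benjamini-Hochberg adjustment over all 15388 genes and an FDR threshold of 0.05. CPM are scaled by TMM. RPKM divides CPM by exonic length from GENCODE M21, which matched 53360 of 53465 identifiers. SE came from the F statistic. Every pair of libraries differed by more than sampling noise (lowest chi-square per degree of freedom 2.93). In simulated data with 15225 genes after the filter, 99 of 100 genes changed by a log2 fold change of 1 and 89 of 100 changed by 0.5 were called, with 13 false calls among 15025 unchanged genes.

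The members and lists were chosen with earlier results of these data known. Values in every library are given for Nrg1, Emcn, Pecam1 and Cdh5, for each member called, with an unadjusted p below 0.05 or with separated groups, and for the highest and the most different member of each subtype. Of the other lists, called genes and, among endothelial genes, those with an unadjusted p below 0.05 are named, and other names were chosen after their values were seen. Lists are described by counts and medians, without a test. The alternatives were RLE, upper quartile and total count scaling, no filter, a minimum CPM of 1 in 4 libraries, DESeq2 1.42.0, limma voom 3.58.1, edgeR's likelihood ratio test, the replicate number as a block, the Y-linked sum as a covariate, a lowess correction for GC and length (span 0.3), leaving out each library, and summing of overlapping genes.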

Additional observations from a re-analysis of the deposited data

Results flagged for a closer look

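Values of 90 groups of 4 libraries were examined for a library far from the other 3, and 2 were found where chance gives about 4.5. Cav2 in WT library 3 was at 33.2 CPM against 31.2 to 31.4 CPM in the other WT libraries. Foxc2 in Flox-labelled library 4 was at 7.71 CPM against 5.69 to 6.0 CPM in the other Flox-labelled libraries.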

How the results depend on the processing

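The number of members called depended on the setting. Against 3, 9 members were called with no filter, 7 by the likelihood ratio test, 6 by DESeq2, 1 by limma voom (Aplnr) and 0 with the Y-linked covariate, where 11 had an unadjusted p below 0.05. Leaving out 1 library gave 0 to 3, with 0 without Flox-labelled library 3 (12 at an unadjusted p below 0.05). Called higher was 1 member (Tm4sf1) with no filter, the likelihood ratio test, DESeq2 and the replicate block. Over all genes 338 were called with no filter, 242 by the likelihood ratio test, 198 by DESeq2 and 16 with the Y-linked covariate, against 81, and 11 to 142 without 1 library (without Flox-labelled libraries 3 and 4). The causes were not tested. Same-numbered libraries deviated together with correlations of 0.0998, 0.0474, 0.0447 and 0.121, all above those of differently numbered ones (-0.0877 to 0.0195). Each library correlated best with its own number, a hint from the data and not the design. Not all of these correlations were above 0.1, the level required here for pairing, and the main test was unpaired. That level cannot show that same-numbered libraries share only a number, and a shared litter or batch was not tested. Under the replicate block 2 members (Aplnr and Tm4sf1) and 93 genes were called, 59 of them shared. Cxcr4 (FDR 0.0767) and Nos3 (FDR 0.0571) lost their calls there. Some log2 fold changes that did not pass changed sign, most of them near 0, but also those of Foxc2 (-0.14) and Unc5b (-0.09). With the Y-linked covariate they were 0.0404 for Tal1, 0.0561 for Vwf, 0.0268 for Unc5b, 0.0442 for Klf4, 0.00813 for S1pr1 and 0.0673 for Foxc2. With the GC and length correction they were 0.0118 for Tal1, -0.0439 for Rasip1, -0.00165 for Myct1, 0.000381 for Apln and 0.00329 for Klf4, and with upper quartile scaling -0.00144 for Myct1. Without 1 library they were -0.052 to 0.0202 for Apln, -0.00896 to 0.0237 for Cdh5, -0.0348 to 0.0315 for Klf4, -0.0246 to 0.029 for Myct1, -0.0106 to 0.0677 for Pdpn, -0.0729 to 0.052 for Plvap, -0.0143 to 0.0548 for Rasip1, -0.0307 to 0.000025 for S1pr1, -0.0191 to 0.0786 for Sox18, -0.0469 to 0.0434 for Tal1 and -0.0783 to 0.019 for Vwf. Summing of overlapping genes, chosen after seeing the data, left the 3 calls. Depth limits the lowest members most, such as Foxc2 with 118 to 182 counts per library, whose 95% confidence interval ran from -0.41 to 0.13 on the log2 scale. The differences of the 3 called members are below the smallest difference simulated (0.5).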
